A study of Mus musculus with 1024 samples.

Results

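The guanylate-binding proteins (GBPs) and the immunity-related GTPases (IRGs) are families of interferon-induced GTPases, and 10 of their genes were followed here in single cells of the mouse aorta. The genes were *Gbp2*, *Gbp3*, *Gbp4*, *Gbp6* and *Gbp7* of the GBPs and *Igtp*, *Iigp1*, *Irgm1*, *Irgm2* and *Ifi47* of the IRGs, listed by name, and all 10 were among the 24422 genes of the count table. The study sorted cells from the aortas of WT and *Amotl2* KO mice aged 3 months and sequenced each cell with Smart-seq2, which copies the polyadenylated RNA of a single cell into full-length cDNA and uses no molecular identifiers, so that a count is a read. The labels spell the line "Amotl2flow/flow / Cdh5-RREert /ROSA26-EYFP" for WT and KO wells alike, which the study's methods write as a floxed *amotl2* gene with Cdh5(PAC)CreERT2 and the ROSA26-EYFP reporter on a C57BL/6 background. Cre was driven by the promoter of *Cdh5*, the gene of VE-cadherin, and tamoxifen was injected to delete *amotl2* in endothelial cells (ECs). Cells that do not use *Cdh5* are not its target. The sources used here do not say which allele the WT mice lacked or whether they were injected. The study as a whole used both sexes, and the sex of the mice behind these wells is not given in the sources used here.

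Cells were sorted in the gate Cd31+Cd45- (labelled Endothelial, here called ECs) and the gate Cd31-Cd45- (labelled DoubleNegative). They came from 2 sorts of WT and 2 of KO cells, with 6 mice per genotype in all. The labels number these sorts (such as WT_sort_1), and a sort is called a preparation here. No mouse is named, so mice could not be told apart within a preparation, and a preparation was taken as 1 replicate. The p-values for genotype below measure the spread between preparations. Those for gate come from WT and KO sums pooled within each gate, so their spread also holds differences by genotype and plate. The 2 gates of the same sort entered that test as separate sums. Of 1024 wells, 784 held at least 20000 counts on genes and 500 genes. These were 235 WT and 302 KO ECs in preparation 1, 50 WT and 89 KO ECs in preparation 2, and 42, 40, 12 and 14 Cd31- cells in the same order. WT and KO cells of preparation 1 were on separate plates, which leaves genotype confounded with plate (the 2 cannot be told apart), whereas both genotypes of preparation 2 shared 1 plate. The counts of a group and preparation were added up, and levels are given as CPM, the share of a gene in the gene counts of that sum times 1000000. The 8 sums held from 926398 to 94881185 gene counts.

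The labels of gate and genotype were checked first. In every EC sum, *Pecam1*, the gene of Cd31, stood between 7145 and 8591 CPM, and in the Cd31- sums between 5.09 and 503 CPM. The highest of the latter was WT preparation 2, in which 3 of 12 wells had a *Pecam1* count. *Ptprc*, the gene of Cd45, had a count in 1 of 784 wells. *Amotl2*, of which the floxed part cannot be told from the rest in a count per gene, had a CPM of 59.9 (WT) and 51.9 (KO) in ECs of preparation 1 and of 94.0 (WT) and 45.7 (KO) in preparation 2. *EYFP*, the reporter of Cre activity, had a count in 4 of 235 and 2 of 50 WT ECs, and in 231 of 302 and 76 of 89 KO ECs.

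As background, GBPs and IRGs are made by many cell types after exposure to interferon-gamma. Effector GBPs such as Gbp2 and the IRGs Iigp1 (Irga6) and Ifi47 (Irgd) are known for work at the vacuoles that enclose intracellular parasites and bacteria. Irgm1, Irgm2 and Igtp (Irgm3) regulate the other IRGs from the cell's own membranes. Interferon receptors act through Jak kinases, and promoters of induced genes carry DNA elements known as GAS and as the interferon-stimulated response element (ISRE), the latter bound by Irf1 and by a complex that holds Irf9.

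The genes lie on 4 chromosomes of the mouse genome GRCm38 (GENCODE M21). *Gbp7*, *Gbp3* and *Gbp2* lie close together on the forward strand of chromosome 3, at 142530342-142550149, 142560026-142573209 and 142620602-142638008. *Gbp4* and *Gbp6* are on the reverse strand of chromosome 5, at 105115767-105139586 and 105270702-105293698. Chromosome 11 holds *Irgm1* (48861968-48871683, reverse strand), *Ifi47* (49076587-49096974), *Igtp* (58199556-58207591) and *Irgm2* (58199618-58222782), and chromosome 18 holds *Iigp1* (60376027-60392634). All 10 are annotated as protein-coding. Counts from exon bases that genes share are uncertain. *Igtp* and *Irgm2* overlap in 162 exon bases, and 29.0% of the exon bases of *Gbp6* also lie in *Gm43302*, which is not in the count table. Reads from near-identical stretches of these families were not resolved further.

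Promoter sequence was looked at because these genes are known as interferon-induced. RefSeq promoters, from 250 bases before to 50 bases after each start, were at hand for 7 of the 10 genes (not for *Gbp4*, *Gbp6* and *Iigp1*). The ISRE was searched as GAAA, any 2 bases and GAAA again, and the GAS element as TTC, any 3 bases and GAA, on both strands. An ISRE match was found in 6 of 7 members, against 3.99% of 27025 genes, and a GAS match in 3 of 7, against 9.55%. *Ifi47* had neither match in this window, which says only that these letters are not in it. The 110 bases just before the RefSeq start of the 6 genes with an ISRE match are given in the direction of transcription, with the matched letters in capitals.

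Gbp7: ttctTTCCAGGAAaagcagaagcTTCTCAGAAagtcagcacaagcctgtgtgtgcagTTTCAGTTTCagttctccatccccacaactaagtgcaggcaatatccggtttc
Gbp3: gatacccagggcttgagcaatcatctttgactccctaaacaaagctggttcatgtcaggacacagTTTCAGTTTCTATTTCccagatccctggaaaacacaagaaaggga
Gbp2: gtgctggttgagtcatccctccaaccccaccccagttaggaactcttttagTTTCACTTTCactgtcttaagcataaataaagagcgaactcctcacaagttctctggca
Irgm1: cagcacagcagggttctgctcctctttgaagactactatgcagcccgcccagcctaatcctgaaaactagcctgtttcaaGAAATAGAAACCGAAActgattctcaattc
Igtp: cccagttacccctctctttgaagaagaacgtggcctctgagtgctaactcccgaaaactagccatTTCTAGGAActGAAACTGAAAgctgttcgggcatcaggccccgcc
Irgm2: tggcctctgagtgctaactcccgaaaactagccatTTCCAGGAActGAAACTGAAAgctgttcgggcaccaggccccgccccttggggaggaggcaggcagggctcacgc

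On GRCm38.p6 these stretches are chr3:142530226-142530335, chr3:142559934-142560043 and chr3:142620553-142620662 for *Gbp7*, *Gbp3* and *Gbp2*, all on the forward strand. They are chr11:48871421-48871530 on the reverse strand for *Irgm1*, and chr11:58199446-58199555 and chr11:58214867-58214976 on the forward strand for *Igtp* and *Irgm2*. RefSeq starts differ from the GENCODE bounds given above. By those bounds the stretches of *Irgm1* and *Irgm2* lie within the genes, and those of *Gbp2* and *Gbp3* in part. *Gbp3* also had another RefSeq promoter, with no match of either motif. In the GBP promoters of chromosome 3 the ISRE lay on the opposite strand, so that it reads TTTC, 2 bases, TTTC here, and *Gbp3* and *Irgm1* each held 2 overlapping ISRE matches. *Igtp* and *Irgm2* carried a GAS match and, after 2 more bases, an ISRE match. Aligned on that ISRE, 81 of 84 bases of these promoters were identical, or 96.4%. A GAS and an ISRE match together occurred in 3 of the 7 members, and in 0.540% of 27025 genes. A match is a run of letters and no evidence of binding.

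All 10 genes were expressed in ECs of both genotypes and both preparations, and all were highest in WT ECs of preparation 1. Their summed level was 6729 CPM in that sum, and 1971 CPM in WT ECs of preparation 2, 1432 CPM in KO ECs of preparation 1 and 1750.2 CPM in KO ECs of preparation 2. Across the members, WT preparation 1 was 3.38 to 7.04 times the KO sum of the same preparation, and 2.0 to 6.11 times the WT sum of preparation 2. The other 3 EC sums were close to each other: for any member, the highest of them was 1.17 to 1.74 times the lowest. Levels in WT preparation 1 were known to be high from earlier results of these data and are given as a description.

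*Iigp1*, an effector IRG that coats vacuoles, had a CPM of 1358 (WT) and 233 (KO) in ECs of preparation 1, and of 391 (WT) and 304 (KO) in preparation 2. *Gbp2*, an effector of the other family, had 1050.0 (WT) and 206 (KO) in preparation 1, and 259 (WT) and 279 (KO) in preparation 2. Both WT sums of *Iigp1* were above both KO sums, whereas the KO sum of *Gbp2* in preparation 2 was above the WT sum that shared its plate.

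*Igtp* showed the largest ratios between WT preparation 1 and the other sums. Its CPM in ECs was 879 (WT) and 125 (KO) in preparation 1 and 144 (WT) and 104 (KO) in preparation 2. *Irgm1* and *Irgm2*, which like Igtp regulate the effector IRGs, had 405 and 375 CPM in WT preparation 1, against 106 and 95.3 CPM in the KO sum. In preparation 2 the order turned. *Irgm1* had 125 CPM (WT) and 146 CPM (KO) there, and *Irgm2* 118 CPM (WT) and 135 CPM (KO).

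*Gbp7* shared this change of order, with a CPM of 848 (WT) and 177 (KO) in preparation 1 and of 186 (WT) and 244 (KO) in preparation 2. *Gbp4* had 622 (WT) and 163 (KO) in preparation 1 and 231 (WT) and 134 (KO) in preparation 2. *Gbp3* had 498 (WT) and 126 (KO), then 184 (WT) and 131 (KO). No KO sum of *Gbp3* or *Gbp4* reached a WT sum, and the same held for *Gbp6*, *Igtp*, *Iigp1* and *Ifi47*. *Ifi47* had a CPM of 604 (WT) and 173 (KO) in preparation 1 and of 302 (WT) and 248 (KO) in preparation 2, the smallest ratio of any member between the WT preparations. *Gbp6* had 90.5 (WT) and 26.7 (KO), then 29.3 (WT) and 25.1 (KO).

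**Figure D1:**
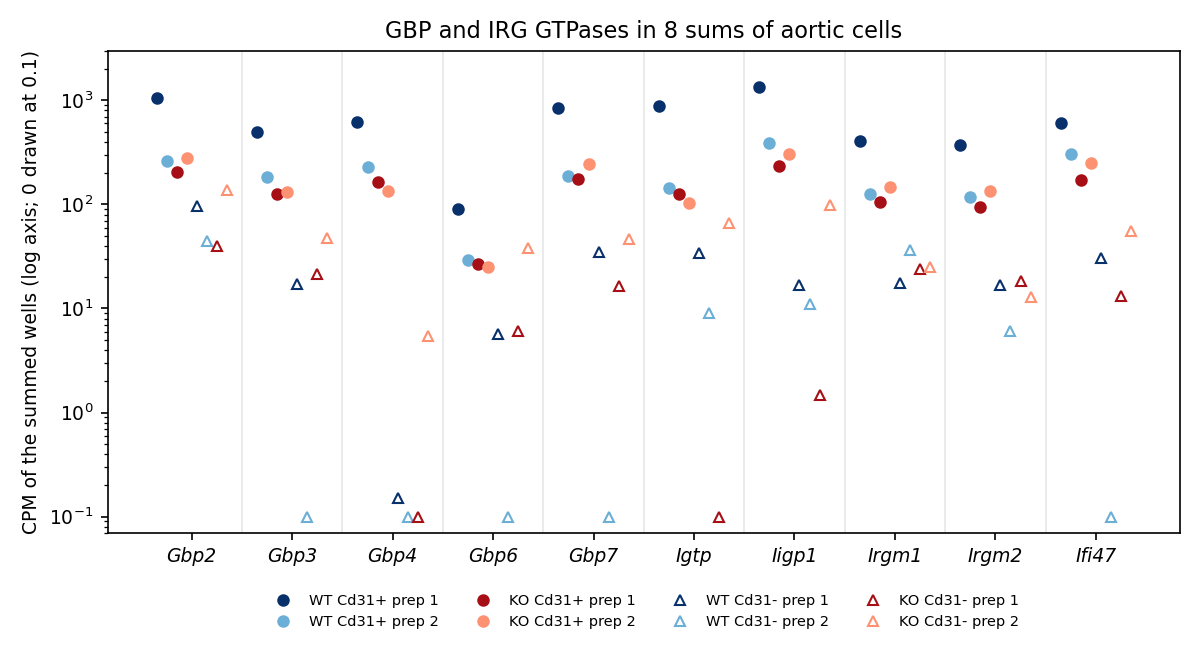
Level of each member in the 8 sums of wells, in CPM on a log axis (a level of 0 is drawn at 0.1). Filled circles are Cd31+ (EC) sums and open triangles Cd31- sums, WT in blue and KO in red, with preparation 1 in the darker shade. The dark blue circle of WT ECs of preparation 1 is the highest point of each gene, and the other 3 circles lie together, at 25.1 to 391 CPM.

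To compare genes with each other, CPM were divided by the exon length in kb. *Igtp* led in WT ECs of preparation 1 with 435 CPM per kb, ahead of *Gbp2* with 417 CPM per kb, *Ifi47* with 244 CPM per kb and *Iigp1* with 233 CPM per kb. In the other 3 EC sums *Gbp2* and *Ifi47* held the first 2 places, with 81.8 to 111 and 70.1 to 122 CPM per kb, and *Igtp* and *Iigp1* the next 2, with 51.3 to 71.2 and 40.0 to 67.2 CPM per kb. Places 5 to 7 went to *Gbp3*, *Gbp7* and *Irgm2* in all 4 EC sums, and *Gbp4*, *Irgm1* and *Gbp6* held places 8 to 10, with *Gbp6* always last at 4.22 to 15.2 CPM per kb. Within the 3 lower EC sums *Gbp2* and *Ifi47* overlapped in level, as did *Igtp* and *Iigp1*, and *Gbp7* and *Irgm2*.

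The make-up of the member reads varied less than their total. *Iigp1* gave 16.3 to 20.2% of the member counts of an EC sum, *Gbp2* 13.2 to 15.9% and *Gbp6* 1.35 to 1.87%. The widest ranges were those of *Igtp*, from 5.92% in KO preparation 2 to 13.1% in WT preparation 1, and of *Ifi47*, from 8.98% in WT preparation 1 to 15.3% in WT preparation 2.

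A read of these genes was found in most ECs. At least 1 member had a count in 234 of 235 WT and 291 of 302 KO ECs of preparation 1, and in all 50 WT and 89 KO ECs of preparation 2. The share of wells with a count ranged over the members from 65.1 to 90.6% in WT preparation 1, from 54.0 to 92.0% in WT preparation 2, from 32.1 to 61.6% in KO preparation 1 and from 38.2 to 87.6% in KO preparation 2. *Gbp6* had the lowest share in each. *Gbp7* had the highest in all but KO preparation 1, where it was *Gbp4*, in 186 of 302 wells (61.6%, exact 95% binomial interval 55.8 to 67.1%). Intervals here cover counting error only, since wells of a preparation share animals and plates.

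Depth was not the same in these groups. The median well held 119656 gene counts in WT and 252839 in KO ECs of preparation 1, and 161532 and 58190 in preparation 2, so the lowest shares were in the deepest group. With every well thinned to 20000 counts, the median share over the members was 76.6% in WT and 37.6% in KO ECs of preparation 1, and 67.0% and 59.6% in preparation 2, against 81.7, 43.7, 80.0 and 69.1% before thinning. KO ECs of preparation 1 also had the fewest genes per well of any kind, with a median of 3314 against 3774, 5501.5 and 4505 in WT preparation 1, WT preparation 2 and KO preparation 2, and the part of this in the lower shares was not tested.

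How many members a single EC used at once differed between the groups in the same way. All 10 had a count in 114 of 235 WT wells of preparation 1, 9 of 302 KO wells of preparation 1, 10 of 50 WT wells of preparation 2 and 11 of 89 KO wells of preparation 2. The median number of members with a count was 9, 4, 8 and 7 in that order, and 9, 3.5, 7 and 6 after thinning. In the wells with a count, the median level of a member was highest in WT preparation 1, with a median of 583 CPM over the members, and was 165 CPM in WT preparation 2, 208 CPM in KO preparation 1 and 118 CPM in KO preparation 2.

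**Figure D2:**
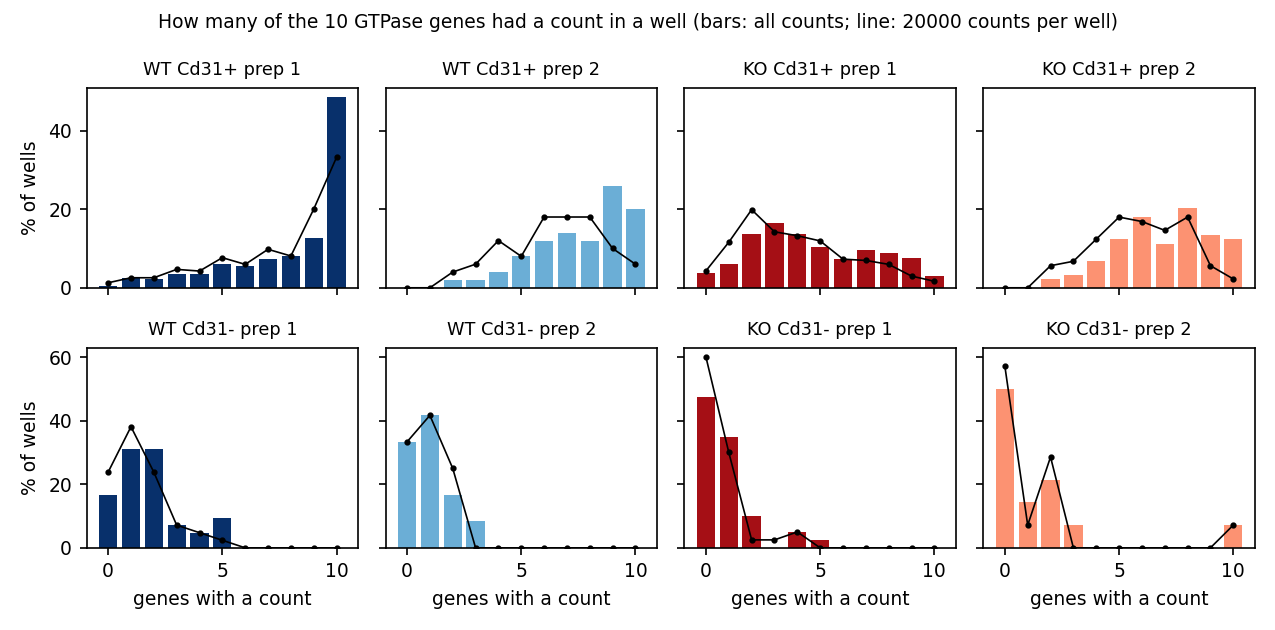
Percentage of wells (vertical axis) in which 0 to 10 of the members had a count (horizontal axis), for the 8 groups, with Cd31+ wells above and Cd31- wells below. Bars use all counts and the line 20000 counts per well. WT ECs of preparation 1 pile up at 10 members (114 of 235 wells), KO ECs of preparation 1 have a median of 4, and most Cd31- wells have 0 to 2.

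The high level of WT preparation 1 was spread over many wells. The median well had 5933 CPM of the members together, the lower quartile 2154 CPM and the upper quartile 10462 CPM, and the top well gave 2.45% of the member counts. In the other EC groups the top well gave 4.19 to 24.2% of them, with the highest share in WT preparation 2. The medians of the other EC groups were 1345 CPM in WT preparation 2, 1018 CPM in KO preparation 1 and 1145 CPM in KO preparation 2. Of the 235 WT wells of preparation 1, 83.0, 86.8 and 84.7% were above those medians. The ranges overlapped: the highest wells of the other groups reached 11216, 16803 and 6455 CPM, and 10 wells of WT preparation 1 were above all of them.

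**Figure D3:**
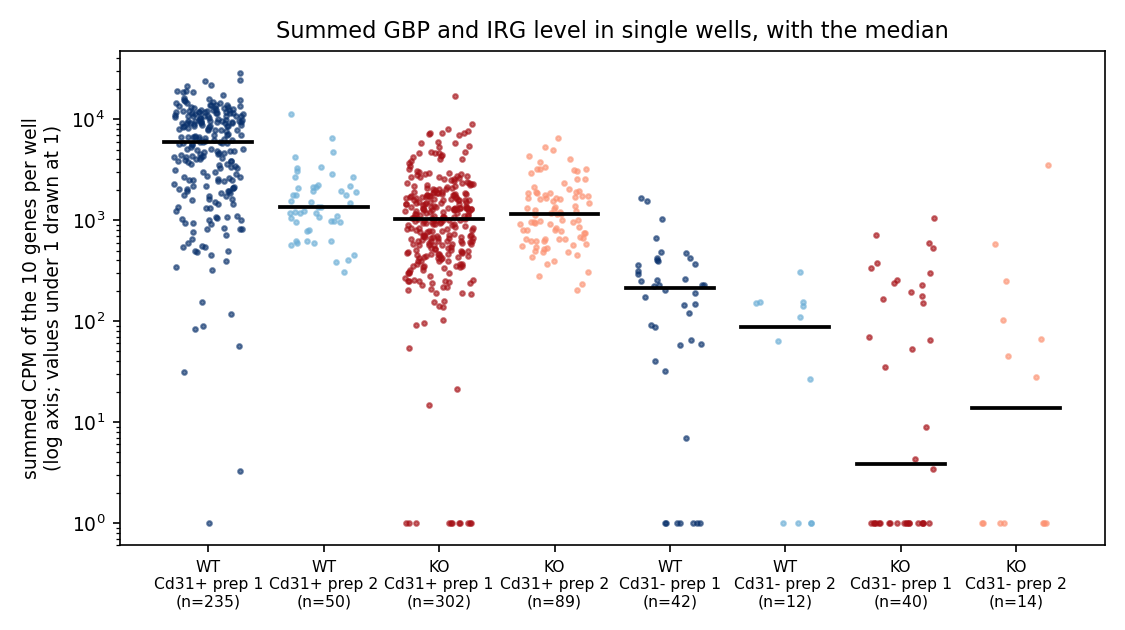
Summed CPM of the 10 members in each of the 784 wells (points, log axis, values under 1 drawn at 1), with the median of each group as a bar. The median bar of WT ECs of preparation 1 stands at 5933 CPM and those of the other EC groups at 1018 to 1345 CPM, while the Cd31- medians lie between 3.86 and 213 CPM.

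The KO and WT ECs were compared over the preparations, 2 sums against 2, by the quasi-likelihood test of edgeR, with p-values adjusted after Benjamini and Hochberg over 12702 genes. Every member was fitted lower in KO, as were 49.8% of all genes, by 1.04 (*Irgm1*) to 2.15 (*Igtp*) on the log2 scale, with a median of -1.32 against 0.00252 over all genes tested. None of the 10 members passed an adjusted p of 0.05, with an adjusted p of 0.9995 in edgeR for each, and none of the 12702 genes did (0% called). DESeq2 called 37 genes, of which 2 were members, and edgeR without a filter on low counts called 8 members. At an unadjusted p under 0.05, 7 members were lower, against 2.06% of all genes in that direction and 3.68% in either. The members were chosen with the high level of WT preparation 1 known, so their shares against all genes are a description only. The difference of *Igtp* was -2.15 (SE 0.64), of *Iigp1* -1.67 (SE 0.49), of *Gbp4* -1.51 (SE 0.41) and of *Gbp2* -1.40 (SE 0.53).

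The result rested on the WT sum of preparation 1. Within preparation 1 the KO sum was lower for all 10 members, by a median of 1.97 on the log2 scale, and all 10 were at least 2 times higher in WT (with 1 added to each CPM), as were 5.55% of all genes. Within preparation 2, where both genotypes shared a plate, *Gbp2*, *Gbp7*, *Irgm1* and *Irgm2* were higher in KO and the other 6 lower, with log2 differences from -0.78 (*Gbp4*) to 0.39 (*Gbp7*), a median of -0.25 and no member 2 times higher in WT, where 9.53% of all genes were. These have 1 sum per genotype and no test. Without WT preparation 1, 0 of the 10 members were called and their median was -0.28, whereas without WT preparation 2 all 10 were called lower in KO by edgeR (adjusted p 7.38e-17 to 5.67e-04). That last fit sets 1 WT sum against 2 KO sums and takes the WT sum to vary like the KO sums. Both KO sums were below both WT sums for 6 members, against 14.6% of all genes. With the high level of WT preparation 1 known when the members were chosen, the shares in this paragraph are no test.

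**Figure D4:**
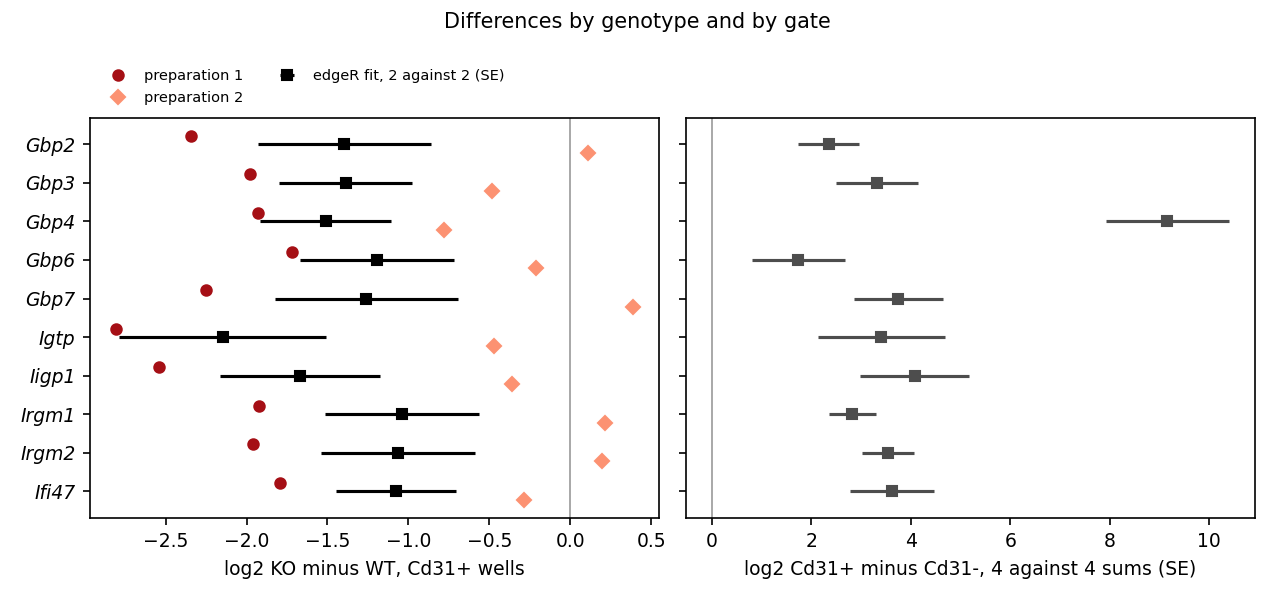
Left, log2 difference KO minus WT of each member in ECs: black squares are the edgeR fit over 2 against 2 sums with its SE, dark circles preparation 1 alone and light diamonds preparation 2 alone. Right, log2 difference Cd31+ minus Cd31- over 4 against 4 sums with its SE. Preparation 1 lies at -1.72 or below for each member, and preparation 2 scatters around 0, between -0.78 and 0.39.

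Levels were also split by the counts of Y-linked genes and of *EYFP*. Among WT ECs of preparation 1, the median summed level was 5913 CPM in the 201 wells with a count of a Y-linked gene and 6325 CPM in the 34 wells without. Among KO ECs of preparation 1, it was 1014 and 1057 CPM in wells with and without a Y-linked count, and 1029 CPM in the 231 wells with an *EYFP* count and 1007 CPM in the 71 wells without. In KO ECs of preparation 2 the medians were 1130 CPM in the 76 wells with and 1383 CPM in the 13 wells without an *EYFP* count. The summed level was 6582 and 8144 CPM with and without a Y-linked count in WT preparation 1, and 1373 and 1681 CPM with and without an *EYFP* count in KO preparation 1. In WT preparation 2 it was 866 CPM in the 2 wells with and 1998 CPM in the 48 wells without an *EYFP* count. Wells without a Y-linked count were shallower, with a median of 78518.5 against 132788 gene counts in WT preparation 1 and 179053 against 277267 in KO preparation 1. Without *EYFP* the median was 218102 against 276946 in KO preparation 1, but 163654 against 135650 in WT preparation 2. A missed read could not be told from an absent one. Of 11 leukocyte markers, 7 to 10 were at 0 in each EC sum, their summed level was 0.30 CPM in WT ECs of preparation 1 and 0.970 to 3.26 CPM in the other EC sums, and *Ptprc* was at 0 in both WT sums. Genes known to rise during tissue dissociation summed to 3187 (WT) and 2844 (KO) CPM in ECs of preparation 1 and to 5947 (WT) and 2561 (KO) CPM in preparation 2, with 0 of 10 called by genotype and a median KO minus WT value of -0.81 on the log2 scale. Of these 10 genes, 2 were highest in WT preparation 1, the heat shock genes *Hspa1b*, with 310.4 (WT) and 14.8 (KO) CPM in preparation 1 and 98.8 (WT) and 43.9 (KO) CPM in preparation 2, and *Hspa1a*, with 155, 36.6, 82.7 and 48.3 CPM in that order. Both were chosen after their values were seen, and *Hspa1b* was at least 2 times higher in WT preparation 1 than in each other EC sum. Their part in the levels of the GTPases was not tested. Markers of smooth muscle cells summed to 707 to 1576 CPM and those of fibroblasts to 108 to 339 CPM in the 4 EC sums, each with the highest value in KO preparation 1.

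ECs and Cd31- cells were then compared over all 8 sums. The members together had a CPM of 272 (WT) and 140.4 (KO) in Cd31- cells of preparation 1 and of 107 (WT) and 533 (KO) in preparation 2. In the same edgeR test, 8 of the 10 members were higher in ECs, where 9.57% of the 11579 genes tested were called higher. WT ECs of preparation 1, whose high level was known when the members were chosen, are 1 of the 4 EC sums. The share of the members called is therefore a description, and fits without that sum are given below. The median log2 difference of the members was 3.47, against 0.0447 over all genes tested. In Cd31- cells, the median share of wells with a count over the members was 16.7% (WT) and 8.75% (KO) in preparation 1 and 4.17% (WT) and 14.3% (KO) in preparation 2, below each of the EC shares given above.

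*Gbp4* had the largest difference of the members by gate, with 134 to 622 CPM in ECs and 0, 0, 0.151 and 5.40 CPM in Cd31- cells. The log2 difference of 9.16 (SE 1.24, adjusted p 4.77e-04 in edgeR) rests on 6 counts in all Cd31- wells and its size is therefore uncertain. *Iigp1* was higher in ECs by 4.08 (SE 1.10), with 1.48 to 98.2 CPM in Cd31- sums, *Gbp7* by 3.75 (SE 0.89), *Ifi47* by 3.62 (SE 0.85) and *Gbp3* by 3.31 (SE 0.83). *Irgm2* was higher by 3.54 (SE 0.52, adjusted p 8.25e-04 in edgeR) and *Irgm1* by 2.82 (SE 0.48). For all of these, each EC sum was above each Cd31- sum.

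*Gbp2* ranked first per kb of exon in each Cd31- sum, with 15.8 to 54.9 CPM per kb. Its CPM there was 97.7 (WT) and 39.7 (KO) in preparation 1 and 44.5 (WT) and 138 (KO) in preparation 2. It was still higher in ECs by 2.35 on the log2 scale (SE 0.61, adjusted p 0.0199 in edgeR). The 2 members that missed the threshold were *Igtp*, at 3.40 (SE 1.28, adjusted p 0.0964 in edgeR), and *Gbp6*, at 1.74 (SE 0.93, adjusted p 0.254 in edgeR). *Gbp6* was the only member whose groups overlapped, its level in KO Cd31- cells of preparation 2 being 37.8 CPM. Of all genes tested, 17.4% had each EC sum above each Cd31- sum.

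That KO Cd31- sum held only 14 wells, and 1 of them had a count of all 10 members, 3526 CPM in total and 80.2% of the member counts of the sum. It had 31617 CPM of *Dcn*, a fibroblast gene, and no count of *Cdh5*, *Pecam1* or *Ptprc*. Without this well, an alternative chosen after seeing the data, all 10 members were higher in ECs at an adjusted p of 0.0419 or less in edgeR, with a median log2 difference of 4.35. In that fit 1088 of 11572 genes tested were called higher in ECs. Without the WT ECs of preparation 1, 5 members were called higher in ECs, with a median of 2.77, as were 871 of 11829 genes. Without both WT sums of preparation 1, 4 members were, with a median of 2.75, as were 1071 of 11582 genes. WT Cd31- cells of preparation 2, the sum with 503 CPM of *Pecam1*, had 5 members at 0 and the lowest summed member level.

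Within the Cd31- gate the members differed between kinds of cell. The 37 wells with more counts of 6 fibroblast markers than of 6 smooth muscle markers had 436 CPM of the members, and the 71 other wells, higher in smooth muscle markers, had 78.3 CPM. *Gbp2* had a count in 23 of 37 of the former (62.2%, exact 95% interval 44.8 to 77.5%) and in 15 of 71 of the latter (21.1%, interval 12.3 to 32.4%). *Irgm1* had a count in 12 of 37 and 9 of 71, *Gbp7* in 12 of 37 and 6 of 71, and *Ifi47* in 11 of 37 and 3 of 71. *Gbp4* had a count in 1 well of each kind. At 20000 counts per well the shares of *Gbp2* were 59.5 and 18.3%. Wells are no replicates and 26 of the 37 fibroblast-marker wells came from WT preparation 1, so this is a description. Within WT preparation 1 the members summed to 332 CPM in fibroblast-marker wells and 172 CPM in the others, and within KO preparation 1 to 480.0 CPM in 9 wells and 38.2 CPM in 31 wells. Preparation 2 held 1 fibroblast-marker well of each genotype, at 153 (WT) and 3526 (KO) CPM.

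Whether the gate changed the KO difference was tested as an interaction over the 8 sums, which was added after seeing the data. No member and none of the 12729 genes tested had an adjusted p under 0.05 in edgeR, while 5.16% of the genes had an unadjusted p under 0.05. Of the members, *Gbp3* (p 0.0487 in edgeR) and *Gbp6* (p 0.0438 in edgeR) were among the latter.

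The members varied together from cell to cell, and most so where they were highest. Over the 235 WT ECs of preparation 1, Spearman's correlation between the CPM of 2 members was positive for all 45 pairs, with a median of 0.54 and a range of 0.40 to 0.68. The median was 0.24 in KO preparation 1, 0.29 in WT preparation 2 and 0.21 in KO preparation 2. After thinning to 20000 counts per well these medians were 0.51, 0.20, 0.19 and 0.16. The correlation between the summed members and the depth of the well was 0.06, 0.02, 0.17 and 0.15 in the same order. Wells share a plate, animals and their depth, so these values describe the wells and carry no p.

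**Figure D5:**
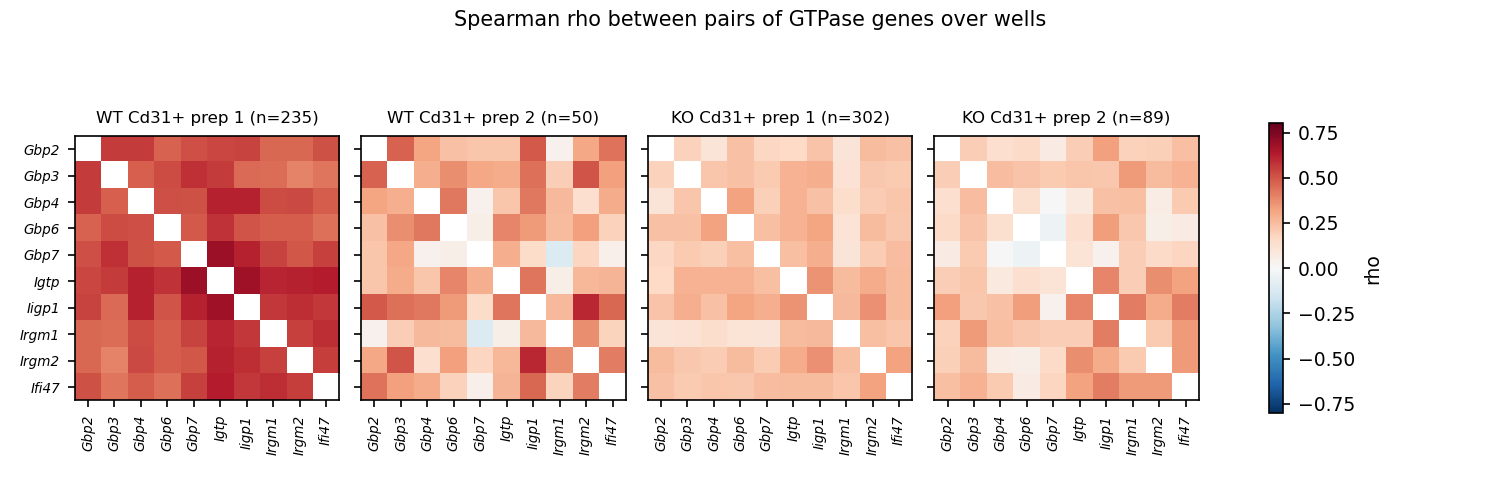
Spearman's correlation between each pair of members over the ECs of 1 group, on a colour scale from -0.8 (blue) to 0.8 (red), with the number of wells above each panel. WT preparation 1 is evenly red (0.40 to 0.68), and the other 3 panels are paler, with medians of 0.21 to 0.29.

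The genes most like the members in WT ECs of preparation 1 were ranked by Spearman's correlation with their summed CPM over the 235 wells, among 6479 genes with a count in at least 25% of those wells. The first 10 were *Tgtp2* (0.75), *Tgtp1* (0.70), *Cd74* (0.65), *Gm4951* (0.64), *Wars* (0.63), *H2-Aa* (0.62), *Gm12250* (0.62), *B2m* (0.61), *H2-Eb1* (0.60) and *H2-Ab1* (0.58). The median gene had a correlation of 0.00790 and the 99th percentile was 0.317. *Tgtp1* and *Tgtp2* are themselves IRGs, and *Cd74*, *H2-Aa*, *H2-Eb1* and *H2-Ab1* belong to MHC class II antigen presentation. In WT ECs of preparation 2 *Tgtp2* had a correlation of 0.51, *Cd74* of 0.45 and *H2-Aa* of 0.44. In KO ECs of preparation 1 *Tgtp2* and *Gm4951* had a correlation of 0.37 and 0.40 and *Cd74* of 0.21, and in KO ECs of preparation 2 *Tgtp2* had 0.51 and *Cd74* 0.10.

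The high level of WT preparation 1 was shared by the MHC class II genes. The 7 genes summed to 6500.3 CPM there, against 256 CPM in WT preparation 2, 144 CPM in KO preparation 1 and 347 CPM in KO preparation 2, and all 6 that passed the filter on low counts were at least 2 times higher there than in each other EC sum, as were 9 of the 10 members and 3.36% of the 12702 genes tested. The members and lists were chosen with earlier results of these data known, so these shares are a description. In edgeR 0 of the 6 class II genes were called by genotype and 6 were higher in ECs than in Cd31- cells, as were 9.57% of all genes tested. In the 38 of its ECs without any count of 7 MHC class II genes the median summed member level was 1221 CPM, against 7751 CPM in the other wells. The same split gave 1174 and 1639 CPM in WT preparation 2, 928 and 1112 CPM in KO preparation 1, and 930 and 1151 CPM in KO preparation 2. Over wells, the summed class II and member levels had a Spearman correlation of 0.65 in WT preparation 1, 0.40 in WT preparation 2, 0.16 in KO preparation 1 and 0.04 in KO preparation 2. All 13 genes of MHC class I and its antigen processing were highest in WT preparation 1, and 3 of them (*Psmb8*, *Psmb10* and *Tap1*, named after their values were seen) were at least 2 times higher there than in each other EC sum. *H2-K1*, a class I heavy chain, had a CPM of 4403 (WT) and 2386 (KO) in preparation 1 and of 2319 (WT) and 2962 (KO) in preparation 2. In edgeR 0 of the 13 were called by genotype, and 11 were higher in ECs than in Cd31- cells, against the same 9.57% of all genes.

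The rest of the family followed the members in part. Of 18 other GBP and IRG genes on the list, 15 had a count in ECs and 13 passed the filter on low counts. Of these 13, 6 were at least 2 times higher in WT preparation 1 than in each other EC sum, namely *Gbp5*, *Gbp10*, *Tgtp1*, *Tgtp2*, *Gm12250* and *Gm4951*. *Tgtp2* had a CPM of 204 (WT) and 32.1 (KO) in preparation 1, and of 37.1 (WT) and 35.7 (KO) in preparation 2. In the same order *Gbp5* had 166, 52.1, 41.6 and 58.3 CPM, and *Gm4951* 206, 31.9, 70.2 and 63.3 CPM. *Gbp9* was outside this pattern with 95, 67.5, 108 and 58.6 CPM, as was *Gbp8* with 76.4, 26.3, 58.2 and 23.1 CPM. Of the rest of the 13, *Gbp11*, *Gm12185*, *Gm4841*, *F830016B08Rik* and *Irgq* had 0.738 to 34.5 CPM in the EC sums. *Gbp2b* and *Gm5431*, with at most 1.93 CPM, did not pass the filter. By gate, 7 of the 12 other family genes that could be tested were higher in ECs and none lower, against 9.57 and 9.55% of all genes tested. Among the 7 was *Gbp8*, which had no count in any Cd31- well (allowing up to 7.14% of the 42 WT wells of preparation 1). By genotype none of 13 passed the threshold, with a median log2 difference of -1.50.

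The genes that carry the interferon-gamma signal were present in ECs, while its ligand had no read in the sorted cells. Cd45+ cells were removed before sequencing, so the lack of reads does not bear on the ligand in the whole aorta. *Ifng* had no count in any of the 784 wells, which allows a share of wells with a read of up to 1.28% in WT and 0.993% in KO ECs of preparation 1 (3 wells of each group), and its name and that of *Ciita* were chosen after their values were seen. *Ifngr1*, a chain of the interferon-gamma receptor, had a CPM of 639 (WT) and 886 (KO) in preparation 1 and of 761 (WT) and 788 (KO) in preparation 2. It was higher in ECs than in Cd31- cells by 2.40 on the log2 scale (SE 0.37, adjusted p 0.00111 in edgeR). The other chain, *Ifngr2*, also named after its values were seen, had 19.6 to 48.8 CPM in EC sums and 116 to 239 CPM in Cd31- sums, and was lower in ECs by 2.29 on the log2 scale (SE 0.36, adjusted p 0.00123 in edgeR). *Jak1*, a kinase of the receptor, had 99.6 to 131 CPM in the 4 EC sums. *Irf1* had 371 (WT) and 192 (KO) CPM in preparation 1 and 190.3 (WT) and 155 (KO) CPM in preparation 2. *Ciita*, the regulator of MHC class II transcription, had 24, 3.51, 4.50 and 1.65 CPM in that order. By gate 3 of 10 tested were higher and 2 lower in ECs, against 9.57 and 9.55% of all genes tested. By genotype 0 of 11 were called, with a median log2 difference of -0.62.

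Among genes known mainly as type I interferon-stimulated, none of the 25 with a count in ECs was at least 2 times higher in WT preparation 1 than in each other EC sum, although 15 were highest there. *Bst2*, an antiviral membrane protein, had 323 (WT) and 213 (KO) CPM in preparation 1 and 167 (WT) and 213 (KO) CPM in preparation 2. *Rtp4* had 133, 84.2, 107 and 99.6 CPM in that order, and *Irf9*, the DNA-binding part of the ISRE-binding complex, 125, 81.7, 94.2 and 78.2 CPM. By genotype 0 of 25 were called, with a median log2 difference of -0.45. By gate 4 of 23 were higher in ECs and 0 lower, against 9.57 and 9.55% of all genes tested.

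Partners that the GTPases are known to work with had no gene at least 2 times higher in WT preparation 1 than in each other EC sum, among those that passed the filter on low counts. Atg8 conjugation genes, which load GBPs and IRGs onto vacuoles, included *Map1lc3b* at 384 to 558 CPM and *Gabarapl1* at 350 to 547 CPM in the 4 EC sums, and 0 of 10 were 2 times higher in WT preparation 1 than in each other EC sum. Of the inflammasome genes that GBPs feed into, *Casp1* had 203 (WT) and 149 (KO) CPM in preparation 1 and 251 (WT) and 150.4 (KO) CPM in preparation 2, and *Gsdmd*, which forms the pore of pyroptosis, had 59.7 to 98.6 CPM. None of the 6 inflammasome genes that passed the filter on low counts was past the same fold. Of the 8 on the list, *Nlrp3* had no count in any well, *Il1b* a count in 1 well and *Aim2* 0 to 5.08 CPM in the EC sums, and these 3 were named after their values were seen. *Casp1* was higher in ECs than in Cd31- cells by 4.55 on the log2 scale (SE 0.78, adjusted p 0.00204 in edgeR). By genotype 0 of 10 and 0 of 6 tested genes of these lists were called.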

How the data were processed

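Single aortic cells in 1024 wells were sequenced with Smart-seq2. Per the labels and the study's methods, the authors aligned reads with STAR 2.7.7a to GRCm38, to which ERCC spike-ins and EYFP had been added, dropped duplicate reads by means of Picard 2.22.0 and deposited raw counts per gene and well from HTSeq 0.9.1. The annotation release is not given in the sources used here. Genes held 51.9% of all counts. Lines of spike-ins and of HTSeq's own totals did not enter library sizes or tests.

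Wells with at least 20000 gene counts and 500 genes were kept, as in the study, and summed by genotype, gate and preparation. No well was listed in more than 1 group. Sums were tested with edgeR 4.0.16 (glmQLFTest, TMM, filterByExpr, threshold 0.05 on the Benjamini-Hochberg adjusted p), without a block as the main design. The tests were checked on simulated counts, the outcome of which is not given here. DESeq2 1.42.0, limma 3.58.1 on log2(CPM + 1) means of wells, RLE factors, no low-count filter, thinned wells, wells with at least 100000 counts, wells by *Cdh5*, *Ptprc* or Y-linked counts and left-out sums were alternatives. Shares have exact (Clopper-Pearson) 95% intervals. The doublet question was left to the sort, and no caller was run. Coordinates and exon lengths came from GENCODE M21, in which 95.7% of symbols were found.

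Replicate numbers are the sort numbers of the labels, taken here to pair WT with KO and the 2 gates of a suspension. The labels do not state that cells of 1 sort number were prepared together. After removal of group means, sums of 1 preparation correlated by 0.115 over 12702 genes, and the gates of 1 suspension by 0.0348 to 0.104. A fit with the replicate block was therefore made for both comparisons.

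The 10 members and all gene lists were chosen with earlier results of these data known. 1 gene of the lists is not reported here. Named are the members, the other family genes with a count, up to 4 genes per list with the highest mean level in ECs, the 10 genes most like the members, and *Amotl2*, *EYFP*, *Cdh5*, *Pecam1* and *Ptprc*. Genes outside this rule, among them *Dcn*, are named after their values were seen.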

Additional observations from a re-analysis of the deposited data

Results flagged for a closer look

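In 3 cases 1 of 4 sums stood apart from the other 3 on the log2(CPM + 1) scale by more than Dixon's 95% critical value, among 20 sets of 4 sums examined (10 members in 2 gates). Chance alone gives about 1 such case in 20 if the sets are independent and normally spread. The members vary together, and several Cd31- sums are at or near 0, so this rate need not hold here. The level of WT preparation 1 was also known when the members were chosen. All 3 cases are therefore a description and no test. In ECs, the gap between WT preparation 1 and the next sum was 0.882 of the whole range for *Gbp6*, with 90.5 CPM in that sum, and 0.847 for *Igtp*, with 879 CPM. In Cd31- cells, the gap was 0.924 for *Gbp4*, where KO preparation 2 had 5.40 CPM and the other sums 0 to 0.151 CPM. All counts of *Gbp4* in that sum came from 1 well, the well with a count of all 10 members.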

How the results depend on the processing

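The limits lie in the design, with 2 preparations per genotype, a plate for each genotype in preparation 1, no named mouse, and Cd31- sums of as few as 12 wells. Counts are reads without molecular identifiers. Intervals cover counting error only, since wells of a preparation share animals and plates. Where a member had no count, as *Gbp4* and *Igtp* in the 40 KO Cd31- wells of preparation 1 or 5 members in the 12 WT wells of preparation 2, a share of up to 7.5% or 25% of wells (3 wells) cannot be told from 0.

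For KO against WT ECs, 0 genes and 0 members were called in the fit reported above. The preparation as replicate block gave 1 gene and 0 members, RLE size factors 1 gene, wells with a *Cdh5* count and no *Ptprc* count 1 gene, thinned wells 5 genes and limma on the mean CPM of wells 8 genes, none of them with a member. DESeq2 called 37 genes with 2 members, and no filter on low counts 104 genes with 8 members. Leaving out 1 sum gave 5 to 311 genes and 0 to 10 members, with 311 genes and 0 members without WT preparation 1, 221 and 10 without WT preparation 2, 5 and 0 without KO preparation 1, and 35 and 1 without KO preparation 2. The median log2 difference of the members was -1.32 and ranged from -1.94 to -0.28 with a sum left out, and was -0.25 in preparation 2 alone. The direction turned for *Gbp7* with a sum left out (-1.96 to 0.17, the latter without WT preparation 1), and in preparation 2 alone for *Gbp2* (0.11), *Gbp7* (0.39), *Irgm1* (0.22) and *Irgm2* (0.19). The cause of these changes was not tested.

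For ECs against Cd31- cells, 8 members were called, and all 10 kept their direction in each of 17 alternatives. The suspension as replicate block gave 1867 genes in either direction, 928 of them higher in ECs, and 8 members. Thinned wells gave 10 members, with 975 of 8337 genes called higher. Leaving out 1 sum gave 5 to 9 members and 871 to 1439 genes called higher. The lowest of these, 5 members and 871 genes, came without WT ECs of preparation 1. Alternatives chosen after seeing the data gave 4 members without both WT sums of preparation 1, and 10 without the Cd31- well that had all members. In that order 1071 of 11582 and 1088 of 11572 genes were called higher. The block changed no call of a count of members in either comparison.

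Among levels, thinning lowered the median share of KO ECs of preparation 1 to 37.6%. For KO cells of preparation 2, the mean of single wells gave a summed level of 1503 CPM in ECs, and wells with at least 100000 counts gave a median share of 84.0% in ECs and a summed level of 895 CPM in Cd31- cells.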
